A study of Mus musculus with 2 samples.

Results

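The genes described here encode the nuclear subunits of the respiratory chain and of ATP synthase. They were chosen by name alone, as the gene spots called Nduf with a subunit letter and number, Uqcr, Sdha to Sdhd, Cox4 to Cox8, or Atp5. That rule took 84 genes of the 29924 gene names on the array, measured by 123 of 39429 probes. By complex they are 35 genes of complex I, 4 of complex II, 8 of complex III, 19 of complex IV and 15 of complex V, with Ndufa4 counted in complex IV. The other 3 names encode no subunit (Atp5s, Atp5sl and the pseudogene Atp5c1-ps). Of the 84 genes, 82 were well above background in all 4 channels and were tested, and 2 isoforms of complex IV, Cox7b2 and Cox8c, were not well above background in any channel.

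RNA came from ureters of NMRI mouse embryos, taken at E15.5 and kept in culture on membranes over 6 days. Mutant embryos, named Fgfr1/2cDKO, were Tbx18(cre/+) together with Fgfr1(fl/fl) and with Fgfr2(fl/fl). Controls were Fgfr1(fl/?) with Fgfr2(fl/?), so both groups carried floxed alleles of both FGF receptor genes and the controls carried no Cre by their label. The Cre is driven from the Tbx18 locus, which is active in the mesenchyme around the ureter. By this design the epithelium is meant to keep its receptors, which RNA of whole ureters cannot show. On each of 2 two-colour arrays 1 mutant RNA was set against 1 control RNA. Array 1 (replicate 1, labelled male) held the mutant RNA in Cy5 and array 2 (replicate 2, labelled female) in Cy3, so replicate, sex label and dye orientation cannot be told apart. Loss of the receptors and presence of the Cre allele cannot be told apart either. The labels do not say how many embryos gave each RNA, so the p-values reflect the spread of these samples alone, and that spread may be technical.

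Complex I takes electrons from NADH, complex II takes them from succinate as part of the tricarboxylic acid cycle, complex III passes them to cytochrome c, and complex IV, cytochrome c oxidase, hands them to oxygen. Complexes I, III and IV pump protons, and complex V, the ATP synthase, uses their return to make ATP. Some small subunits of complex IV exist as alternative isoforms. The forms typical of heart and skeletal muscle, and some of them of brown fat, take the place of a partner that most cells express.

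Values are log2 ratios of mutant over control, normalised within each array by loess, given for array 1 and array 2 and as mean ± SD (n = 2 arrays). A gene was called when limma's moderated test against 0, with Benjamini-Hochberg adjustment over all 21981 genes tested, gave an adjusted p below 0.05. Between 70.3% and 78.3% of gene spots were well above background per channel, and precision is limited by having 2 arrays. Of the targeted genes, Fgfr1 did not pass limma's test, at -0.33 ± 0.15 (SD, n = 2; adjusted p = 0.134), and Fgfr2 rose by 0.56 ± 0.02 (SD, n = 2; limma adjusted p = 0.0307). Which exons are floxed is not given in these sources. A probe outside them is no check of genotype or label. Calls depended on the normalisation. Limma called 842 genes with loess, 140 with the authors' value table, 10 with the scanner software's signals, 3 with channels taken separately and 0 with each array centred on its median (5567 genes at an unadjusted p below 0.05 there), so no call given here held under median centring.

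Among the 82 tested genes, 2 fell in the mutant RNA, none rose, and 80 did not pass limma's test. Both that fell, Cox8b and Cox7a1, encode muscle-type isoforms of complex IV subunits. In RNA of whole ureters, fewer cells of a type and less RNA per cell cannot be told apart. The called share of 2.44% lies near the background, since 3.83% of all genes tested were called, with 1.78% of the genes tested higher in the mutant RNA and 2.05% lower. At an unadjusted p below 0.05 there were 16 members (19.5%), 5 higher and 11 lower, against 4938 of all 21981 genes (22.5%). As a group the genes sat slightly below 0. Their median was -0.09, from -0.02 on array 1 and -0.13 on array 2, beside -0.02 for all genes tested (-0.03 and -0.003). The middle of their range was no wider than that of all genes, with quartiles at -0.16 and 0.01 against -0.15 and 0.13. Both arrays gave a ratio below 0 for 38 members, or 46.3%, where 36.0% of all genes did so, and both gave one above 0 for 13 members, or 15.9%, against 30.5%. The remaining 31 members had opposite signs on the arrays. Without Cox8b and Cox7a1 the median was -0.08, and no other member's mean lay more than 0.42 from 0. For a typical member the 95% interval reached 0.25 to either side of its mean, so differences below that size were not resolved by 2 arrays. That interval is not adjusted for the number of genes, and larger differences could fail the test too. Cox6a2, at -0.42, did not pass (limma adjusted p = 0.0728), so the uncalled members are not shown to be unchanged. With each array centred on its median in place of loess, the median of all genes moved to -0.14 and that of the members to -0.37, so the members lay 0.23 below all genes there and 0.07 below them with loess.

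**Figure D1:**
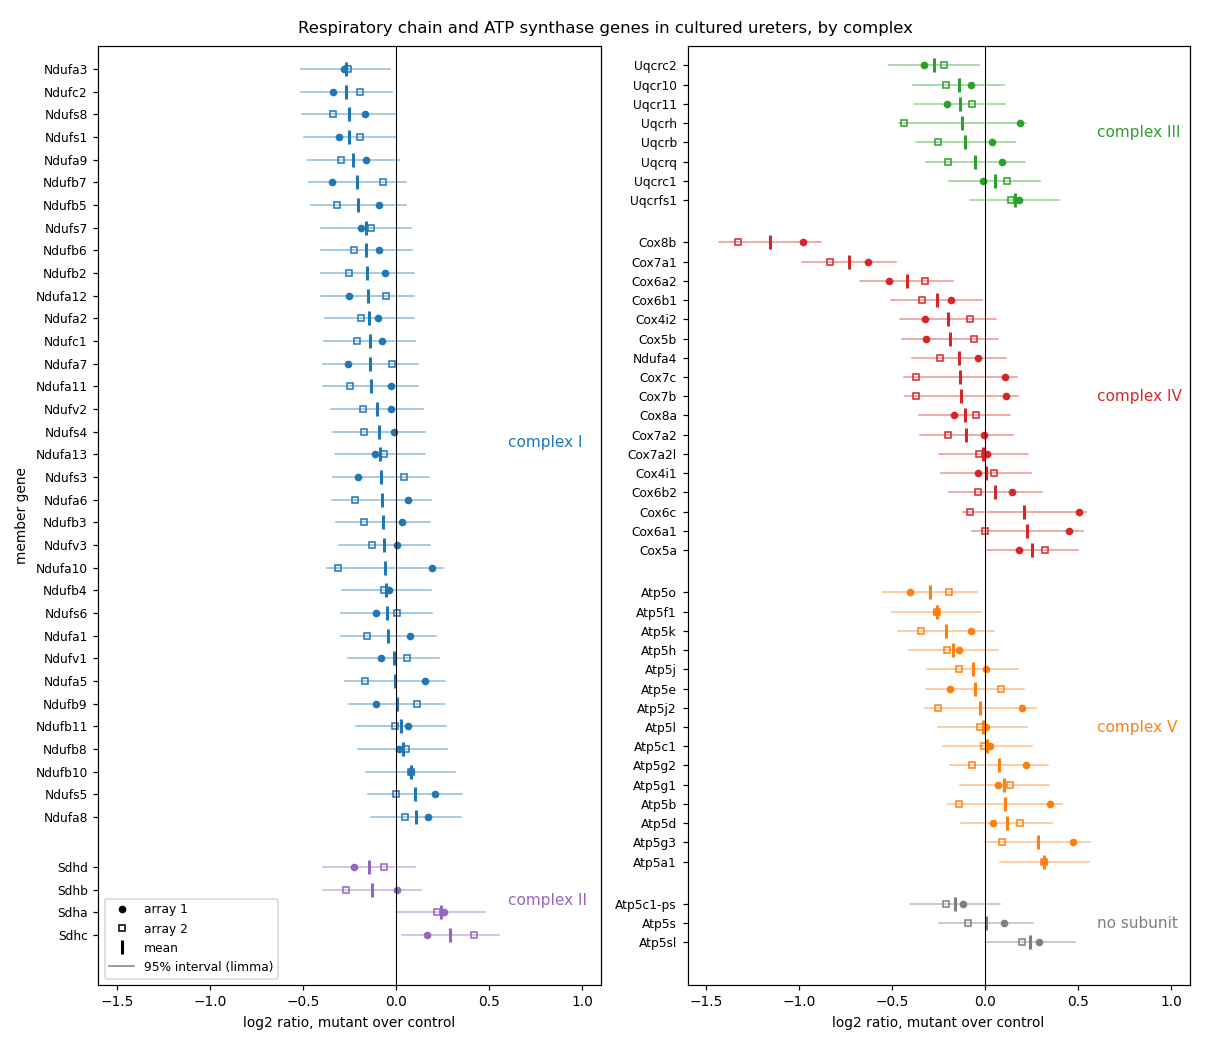
Log2 ratio of mutant over control for 81 of the 82 tested genes by respiratory complex, with array 1 as filled circles, array 2 as open squares, the mean as a tick and limma's 95% interval as a line. Cox8b and Cox7a1 lie apart at -1.16 and -0.73, and the other means lie between -0.42 and 0.32.

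Cox8b encodes the heart and muscle form of subunit 8, one of the smallest subunits of cytochrome c oxidase. Its log2 signal was 13.17 and 12.86 in the control RNA on arrays 1 and 2, and 12.19 and 11.53 in the mutant RNA. Both mutant samples lay below both control samples. That gave log2 ratios of -0.98 and -1.33, with a mean of -1.16 ± 0.25 (SD, n = 2; 95% interval -1.43 to -0.88; limma adjusted p = 0.00968), a 2.23-fold lower level. Among all 21981 genes tested this was the mean of rank 37 from the lowest. The probe lies at chr7:148084852-148084911 (mm9).

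Cox7a1 encodes the heart and muscle form of subunit 7a, a small membrane subunit of the same enzyme. Its log2 signal was 10.97 and 10.85 in the control RNA and 10.34 and 10.02 in the mutant RNA, again without overlap between the genotypes. That gave log2 ratios of -0.63 and -0.84, with a mean of -0.73 ± 0.15 (SD, n = 2; 95% interval -0.99 to -0.48; limma adjusted p = 0.0194), a 1.66-fold lower level and rank 161 from the lowest. Both mutant signals lay below both control signals for 35 of the 82 tested members, so this is not particular to Cox8b and Cox7a1. The share over all genes was not counted. The Cox7a1 probe spans chr7:30970337-30970948 (mm9), more genome than its 60 bases, and is shown because this gene rests on it alone.
Cox7a1 probe: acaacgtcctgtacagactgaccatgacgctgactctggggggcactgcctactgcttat

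Neither call held under every way of processing the signals. With the scanner software's own normalisation the adjusted p was 0.0606 for Cox8b and 0.0793 for Cox7a1, with the authors' value table it was 0.0420 and 0.0575, and over all alternatives it ran from 0.000503 to 0.309 and from 0.00465 to 0.429. Both means were below 0 in each of the 7 alternatives that change the ratio, which include each array taken alone, as given above.

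The partner isoforms that most cells express gave smaller ratios. Cox8a, the partner of Cox8b, had log2 ratios of -0.17 and -0.05 (mean -0.11, limma adjusted p = 0.584). Within an array, the Cox8b ratio was lower than the Cox8a ratio by a log2 difference of -0.81 on array 1 and -1.28 on array 2. Cox7a2, the partner of Cox7a1, had ratios of -0.005 and -0.20 (mean -0.10, adjusted p = 0.627), and the Cox7a1 ratio differed from it by -0.63 and -0.64, the closest agreement between arrays of any isoform pair given here. Cox7a2l, a relative of subunit 7a that helps join complex IV to complex III, had a mean of -0.01 (adjusted p = 0.966), whose sign turned with the scanner software's normalisation and with the authors' value table. These differences between isoforms are descriptions and were not tested.

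The third muscle-type form, Cox6a2 of subunit 6a, had log2 signals of 8.94 and 8.88 in the control RNA and 8.42 and 8.55 in the mutant RNA. Both mutant values lay below both control values. Its ratios were -0.52 and -0.33, and the mean of -0.42 ± 0.14 (SD, n = 2; 95% interval -0.67 to -0.17) did not pass, with a limma adjusted p of 0.0728. Its partner Cox6a1 had ratios of 0.45 and 0.002, so most of its mean of 0.23 came from array 1. Cox4i2, the isoform of subunit 4 associated with lung and low oxygen, had ratios of -0.32 and -0.08 (mean -0.20), and Cox4i1 had -0.04 and 0.05 (mean 0.005). The testis form Cox6b2 of subunit 6b had ratios of 0.14 and -0.04 (mean 0.05), while Cox6b1, the form found in most cells, had -0.19 and -0.34 (mean -0.26, adjusted p = 0.201). None of these 5 genes passed limma's test. Here the order was the other way round, with the tissue form 0.33 and 0.30 above its partner. The means of Cox6a1, Cox4i1 and Cox6b2 were below 0 when arrays were centred on the median in place of loess. Of the 7 tissue-restricted isoforms, 5 were tested, with a median of -0.42, beside -0.11 for the other 12 genes of complex IV. That median includes the called Cox8b and Cox7a1 and is the value of Cox6a2. The 3 that did not pass had means of -0.42, -0.20 and 0.05, so they shared no direction.

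**Figure D2:**
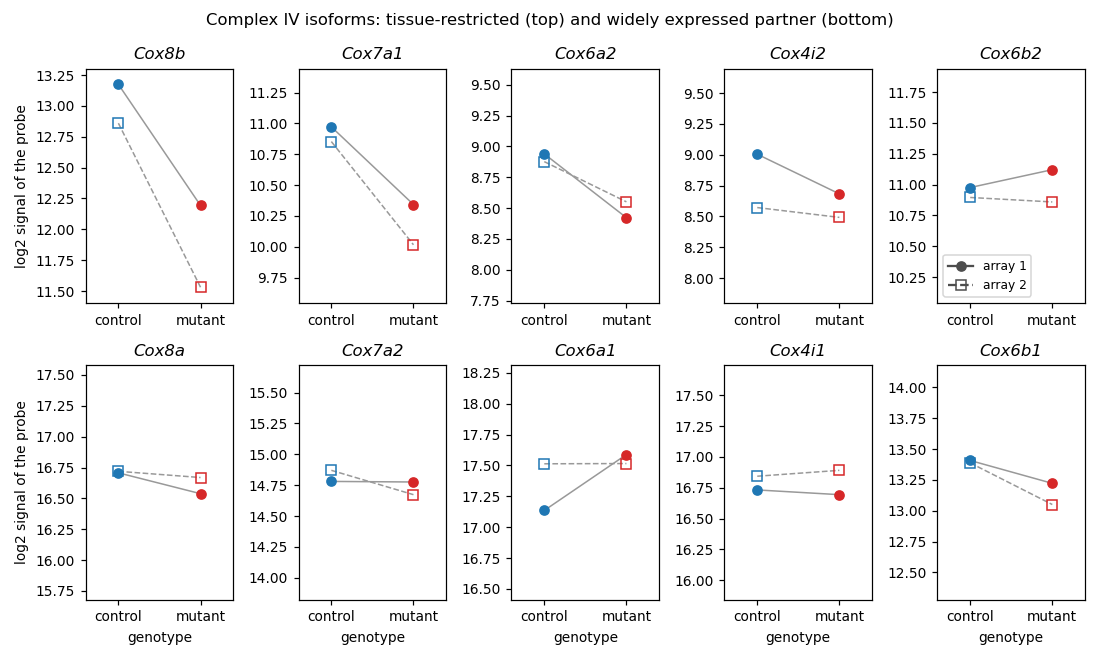
Log2 signal of the probe in the control and mutant RNA of each array for 5 tissue-restricted isoforms of complex IV (top) and the partner isoform most cells express (bottom). Each panel has its own level and the same span, so slopes can be compared between panels and heights cannot. Cox8b and Cox7a1 have lower mutant than control signals on both arrays, with ratios of -0.98 and -1.33, and of -0.63 and -0.84.

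Promoter windows of the pair that fell and of their partners are printed because the members of a pair differed in the array data while the paired proteins take the same place in the enzyme. Each window runs from 250 bases before to 50 bases after the RefSeq start (GRCm38.p6), 5′ to 3′ on the gene's strand. Capitals mark matches to motifs searched on both strands. These were the palindromic NRF1 site, CCGGAAGT (ETS factors, GABP among them), TCAAGGTCA (oestrogen-related receptors) and the AAGGTCA within it. Further motifs were TATAAA (a core promoter element), CAGCTG (an E-box of myogenic factors) and a loose form of the MEF2 site. That form allowed any base at its middle positions, so its matches are not shown to be MEF2 sites. The windows are chr7:140900397-140900696 (minus strand) for Cox8b, chr7:30183921-30184220 (plus) for Cox7a1, chr19:7217567-7217866 (minus) for Cox8a and chr9:79759804-79760103 (minus) for Cox7a2.
Cox8b: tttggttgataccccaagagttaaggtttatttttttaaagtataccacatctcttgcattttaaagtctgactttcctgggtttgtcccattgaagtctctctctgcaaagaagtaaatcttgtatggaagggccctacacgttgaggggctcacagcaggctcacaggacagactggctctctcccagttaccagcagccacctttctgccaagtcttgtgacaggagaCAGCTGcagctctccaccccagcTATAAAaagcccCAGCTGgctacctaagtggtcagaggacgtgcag
Cox7a1: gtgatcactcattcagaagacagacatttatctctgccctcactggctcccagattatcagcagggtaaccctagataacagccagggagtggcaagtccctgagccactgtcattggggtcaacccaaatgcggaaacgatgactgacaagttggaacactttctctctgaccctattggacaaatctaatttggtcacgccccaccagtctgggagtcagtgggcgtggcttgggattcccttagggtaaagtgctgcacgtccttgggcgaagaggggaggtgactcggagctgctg
Cox8a: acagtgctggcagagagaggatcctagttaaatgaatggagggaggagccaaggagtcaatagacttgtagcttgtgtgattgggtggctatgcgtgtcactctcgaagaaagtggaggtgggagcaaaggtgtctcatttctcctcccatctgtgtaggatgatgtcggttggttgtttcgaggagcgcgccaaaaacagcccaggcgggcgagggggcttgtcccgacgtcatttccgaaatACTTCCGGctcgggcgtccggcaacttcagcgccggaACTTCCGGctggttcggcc
Cox7a2: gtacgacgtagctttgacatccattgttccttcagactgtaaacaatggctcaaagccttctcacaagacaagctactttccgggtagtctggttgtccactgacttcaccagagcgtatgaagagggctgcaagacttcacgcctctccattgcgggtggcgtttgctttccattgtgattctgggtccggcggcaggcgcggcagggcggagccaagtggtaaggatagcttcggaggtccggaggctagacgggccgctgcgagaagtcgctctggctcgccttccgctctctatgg

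The Cox8b window held TATAAA and 2 matches to CAGCTG, with the TATAAA just after the annotated start. The Cox8a window held 2 matches to the ETS motif, both read on the opposite strand. The windows of Cox7a1 and Cox7a2 held none of the motifs. Windows were found for 69 of the 84 members. The NRF1 motif, of a factor known for activating respiratory genes, stood in 5 of these (7.25%, in Uqcrc1, Ndufa11, Cox6a1, Atp5g2 and Atp5k), beside 1.07% of 27025 genes with a window. The ETS motif stood in 5 members (7.25%) beside 4.31%, the oestrogen-related receptor motif in 2 (2.90%, Sdhd and Atp5g3) beside 0.466%, and AAGGTCA in 8 (11.6%) beside 5.38%. TATAAA stood in 7 members (10.1%) beside 15.7%, and CAGCTG in 6 (8.70%) beside 18.3%. The loose form of the MEF2 site stood in Cox5b alone (1.45%) beside 4.23%. These counts describe letters in a window and not binding.

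Complex IV had no other gene called by limma, and 3 more at an unadjusted p below 0.05, Cox6a2, Cox6b1 and Cox5a. Cox5a, a subunit on the matrix side, was highest in the complex, at 0.18 and 0.32 (mean 0.25, limma adjusted p = 0.209), and at -0.08 under median centring. Cox7b, of subunit 7b, was at 0.11 on array 1 and -0.37 on array 2, and Cox7c, of subunit 7c, at 0.11 and -0.37, so neither had a direction, and the 3 Cox7c probes had means from -0.13 to 0.04. Over its 17 tested genes complex IV had a median of -0.13.

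In complex I no gene passed limma's test among 35. Their median was -0.09 (-0.08 and -0.16 by array), and 29 of the 35 means were below 0, where 54.0% of all genes tested had a mean below 0. Ndufa3, an accessory subunit of the membrane arm, was lowest by the brightest probe of each gene. It was at -0.28 and -0.26 (mean -0.27 ± 0.01, SD, n = 2; adjusted p = 0.179). Its other tested probe had opposite signs on the arrays, at 0.04 and -0.33 (mean -0.15). A dimmer probe of Ndufb5 had a mean of -0.28, where the brightest probe of that gene had -0.20, so the lowest place depends on the probe. Ndufa8, another accessory subunit, was highest, at 0.17 and 0.05 (mean 0.11, adjusted p = 0.589), and was below 0 when arrays were centred on the median in place of loess. The 7 core subunits encoded in the nucleus hold the flavin, the iron-sulphur clusters and the quinone site. All 7 had a mean below 0, from -0.25 to -0.01, with a median of -0.16, beside -0.08 for the 28 accessory subunits. On both arrays 5 of the 7 lay below 0, and 2 had opposite signs. Ndufs1, a subunit of the electron input part, was at -0.31 and -0.19, and Ndufs8, an iron-sulphur subunit, at -0.17 and -0.34. Over the whole complex, 4 of the 35 genes had an unadjusted p below 0.05, where 22.5% of all genes tested did so. All 4 were lower in the mutant RNA, and Ndufs1 and Ndufs8 were 2 of them.

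Complex II is the only complex here with all of its subunits in the nucleus, and its 4 genes shared no direction. Sdha, the flavoprotein, was at 0.26 and 0.22 (mean 0.24, limma adjusted p = 0.223), and Sdhc, a membrane anchor, at 0.17 and 0.42 (mean 0.29, adjusted p = 0.179). Sdhb, the iron-sulphur protein, was at 0.01 and -0.27 (mean -0.13, adjusted p = 0.542), and Sdhd, the other anchor, at -0.22 and -0.06 (mean -0.14, adjusted p = 0.469). So Sdha and Sdhc were above 0 on both arrays, Sdhd was below 0 on both, and none passed, with 1, Sdhc, at an unadjusted p below 0.05. Under median centring Sdha was at -0.03 and Sdhc at 0.04. With loess the 2 tested Sdhc probes had means of 0.05 and 0.29. Sdhb also had 2 tested probes, and the dimmer one was below 0 on both arrays, at -0.20 and -0.35 (mean -0.28).

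Complex III had a median of -0.11 over 8 genes, none of which passed limma's test, with 1, Uqcrc2, at an unadjusted p below 0.05. Uqcrc2, a core protein on the matrix side, was lowest, at -0.33 and -0.22 (mean -0.27 ± 0.07, SD, n = 2; limma adjusted p = 0.179). Uqcrfs1, the Rieske iron-sulphur protein that carries electrons within the complex, was highest, at 0.18 and 0.14 (mean 0.16, adjusted p = 0.406), and at -0.10 under median centring. The arrays differed most for Uqcrh, a small subunit near cytochrome c1, at 0.19 and -0.44.

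Complex V had a median of -0.01 over 15 genes, again with none called by limma, and 4 genes were at an unadjusted p below 0.05, 2 higher (Atp5a1 and Atp5g3) and 2 lower (Atp5o and Atp5f1). Atp5a1, the alpha subunit of the catalytic head, was the highest of all members, at 0.32 on each array (limma adjusted p = 0.128), and at 0.02 under median centring. Of the other head subunits, beta (Atp5b) was at 0.35 and -0.14, delta (Atp5d) at 0.04 and 0.19, gamma (Atp5c1) at 0.03 and -0.003 and epsilon (Atp5e) at -0.19 and 0.08, so no common direction appeared. The head's 5 genes had a median of 0.11, and the 10 genes of the stalk and membrane part had a median of -0.05. Atp5o, a stalk subunit that ties the head to the stator, was lowest in the complex, at -0.40 and -0.19 (mean -0.30 ± 0.15, SD, n = 2; adjusted p = 0.162). Subunit c, which forms the rotor ring, is encoded by 3 genes for the same mature protein. Atp5g1 was at 0.07 and 0.13, Atp5g2 at 0.22 and -0.07, and Atp5g3 at 0.47 and 0.09, with means of 0.10, 0.07 and 0.28. All 3 means lay above 0 with loess and below 0 under median centring (-0.19, -0.27 and -0.04).

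The names that encode no subunit gave means of 0.005 for Atp5s, 0.24 for Atp5sl and -0.16 for the pseudogene Atp5c1-ps, whose probe can bind transcripts of its parent gene. None of the 3 passed limma's test, and Atp5sl alone had an unadjusted p below 0.05. Several probes were tested for 29 members, and their means differed by 0.08 in the median gene and by at most 0.24. Probes of opposite sign were found for 5 genes, Atp5c1, Atp5j, Atp5l, Cox7c and Ndufb11, with means between -0.13 and 0.04.

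**Figure D3:**
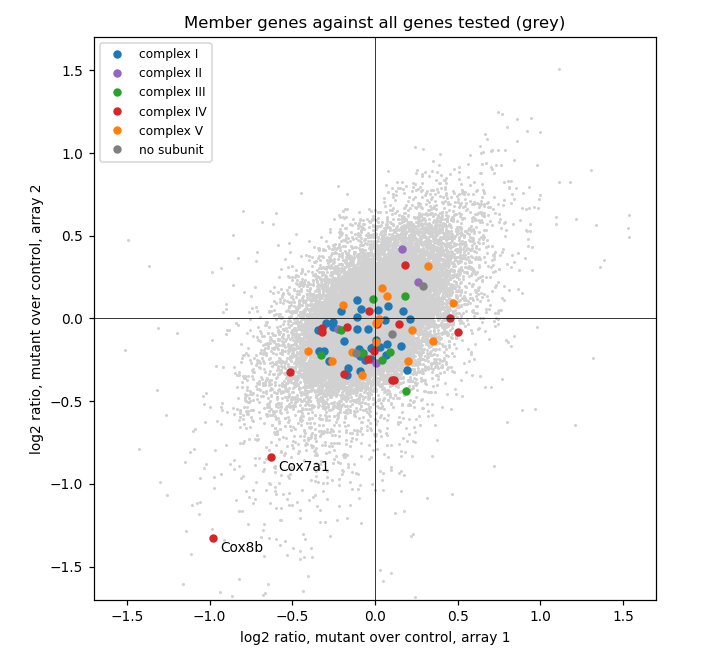
Log2 ratio on array 1 (horizontal) against array 2 (vertical) for the tested members, coloured by complex, over all 21981 genes tested in grey. Most members lie in the dense centre, Cox8b and Cox7a1 lie at the lower left, and genes beyond the axes are not drawn.

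Over the member genes, which share samples and are no replicates, r between array 1 and array 2 was 0.55, and 0.31 without Cox8b and Cox7a1, beside 0.52 over all genes tested. Array 2 gave the lower ratio for 51 of the 82 members (62.2%), where it did so for 45.3% of all genes.

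The other genes of the pathway were counted from 5 lists of genes outside the naming rule, and none of their 105 tested genes was called by limma. At an unadjusted p below 0.05 there were 12 of them, where 22.5% of all genes tested lay at that level. In the order of the lists below, the share at that level was 4.55%, 10%, 23.5%, 29.4% and 0%. Of 49 assembly factors, which build the complexes and insert their cofactors, 44 were tested, with a median of -0.06. Ndufaf4, an assembly factor of complex I, had a mean of -0.34 (limma adjusted p = 0.109), Timmdc1, also of complex I, -0.38 (adjusted p = 0.124) and Ndufaf3 -0.23. Of 11 carriers and subunits with other names, 10 were tested, with a median of -0.07, among them cytochrome c (Cycs) at -0.19, the electron transfer flavoprotein Etfa at -0.12 and Ndufa4l2, a relative of Ndufa4 induced by low oxygen, at -0.30.

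Regulators of mitochondrial genes, 17 of 18 tested, had a median of 0.002. Esrrg, an oestrogen-related receptor typical of oxidative tissues, was at -0.35 and -0.45 (mean -0.40, limma adjusted p = 0.0782), while its relative Esrra had a mean of 0.43 (adjusted p = 0.110) and the fatty acid sensor Ppara one of 0.31 (adjusted p = 0.145). The 17 genes of the tricarboxylic acid cycle and pyruvate dehydrogenase had the lowest median of these lists, -0.19, and 5 of them (29.4%, beside 22.5% of all genes tested) had an unadjusted p below 0.05, all lower. Idh3a, a subunit of isocitrate dehydrogenase, was at -0.18 and -0.84 (mean -0.51, adjusted p = 0.104), with means of -0.34 for the lipoamide dehydrogenase Dld and -0.33 for Suclg2, a subunit of succinyl-CoA ligase. The 17 genes taken as measures of mitochondrial mass had a median of -0.01 and none at an unadjusted p below 0.05. In that list the phosphate carrier Slc25a3 was at 0.22, the ATP/ADP carrier Slc25a5 at -0.21 and the import receptor Tomm20 at 0.20. Slc25a3 and Tomm20 were below 0 under median centring.

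Probes for 10 subunits encoded in the mitochondrial genome were examined as well, a list added after their values had been seen. ND1, a core subunit of complex I, fell by 0.62 ± 0.20 (SD, n = 2; limma adjusted p = 0.0299), with ratios of -0.76 and -0.48, and the other 9 did not pass. ND1 did not pass with the scanner software's signals, the authors' value table, median centring or separate channels. The 10 genes had a median of -0.22 (-0.36 on array 1 and -0.13 on array 2). Of their means 9 lay below 0, where 54.0% of all genes tested had a mean below 0. At an unadjusted p below 0.05 there were 4 of the 10, all lower, beside 22.5% of all genes tested. The exception, ND3 at 0.08, has a probe that the file places on chromosome 1.

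Markers of cell types that express muscle-type isoforms of complex IV, or that a ureter culture could hold, were measured on the same arrays. Of 7 tested adipocyte markers 6 fell, and their part in the result for Cox8b and Cox7a1 was not tested here. The fat hormone Adipoq had log2 ratios of -1.15 and -3.15, the fatty acid carrier Fabp4 -1.15 and -2.83 and the protease adipsin (Cfd) -1.23 and -4.02, so each had its lower ratio on array 2. Retn fell as well, at -1.23 and -2.07 (limma adjusted p = 0.00981), as did Cidec at -0.88 and -2.92 (adjusted p = 0.0332). Plin1 was at -0.67 and -2.12 (adjusted p = 0.0337). Like every call, those of Retn, Cidec and Plin1 did not hold under median centring. The summed signal of the list was 73001 to 88216 in the controls and 26381 to 52818 in the mutants, and Lep was not well above background in any channel. Pparg, the adipogenic receptor, did not pass, at 0.15 and 0.25. Adipoq, Fabp4 and Cfd did not pass with robust eBayes, the scanner software's signals, the authors' value table, median centring or separate channels, and Cfd did not without the filter on dim probes either.

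Of 7 tested markers of brown or beige fat, 1 fell, the lipid droplet protein Cidea at -0.49 and -0.44 (mean -0.47 ± 0.04, SD, n = 2; limma adjusted p = 0.0490). The defining gene Ucp1 was at 0.06 and 0.07 (adjusted p = 0.741), and Elovl3 was not well above background in any channel. The summed signal ranges of the list overlapped, with 3559 to 3732 in the controls and 3247 to 3745 in the mutants. Cidea did not pass under the same 5 settings as Adipoq, and the part of brown fat RNA in the result was not tested.

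Of 11 tested striated muscle markers, 2 fell and 9 did not pass. The atrial myosin Myh6 was at -2.41 and -1.93 (mean -2.17 ± 0.34, SD, n = 2; limma adjusted p = 0.000792), and the muscle creatine kinase Ckm at -1.30 and -0.99 (mean -1.14 ± 0.22, SD, n = 2; adjusted p = 0.00965). A second Myh6 probe was not well above background. Neither passed under median centring, and Ckm did not with separate channels. The 9 others had means from -0.44 (Tnnt2) to 0.38 (Tnni2), 6 below 0 and 3 above. Mb, Ckmt2 and Pln, further genes of oxidative muscle, were not well above background in any channel. The summed signal was 68499 to 71965 in the controls and 56554 to 57191 in the mutants, without overlap. Its largest parts came from Tnnt2, Actc1 and Acta1, which did not pass. Their control log2 signals on array 1 were 14.97, 13.84 and 13.29, beside 11.69 for Myh6 and 8.36 for Ckm. The part of striated muscle RNA in the isoform result was not tested.

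The defining markers of ureteric tissue were well above background in all samples. None of 6 smooth muscle markers passed limma's test or had an unadjusted p below 0.05, with Acta2 at a mean of 0.002, and 3 of 8 urothelial markers rose, Upk1a, Krt18 and Cdh1, by 0.97, 0.61 and 0.80. The other 5 did not pass, 4 of them above 0 on both arrays and Krt5, a keratin of basal cells, below 0 on both, at -0.25 and -0.68. Of 5 markers each, 3 of endothelium (Cdh5, Emcn and Esam), 2 of macrophages (Mrc1 and C1qa) and 4 of neurons (Stmn2, Dbh, Prph and Th) fell. Of 3 tested kidney tubule markers Umod passed the test, but neither control sample was well above background for it, so no size is given. The part of these shifts in the members' ratios was not tested.

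**Figure D4:**
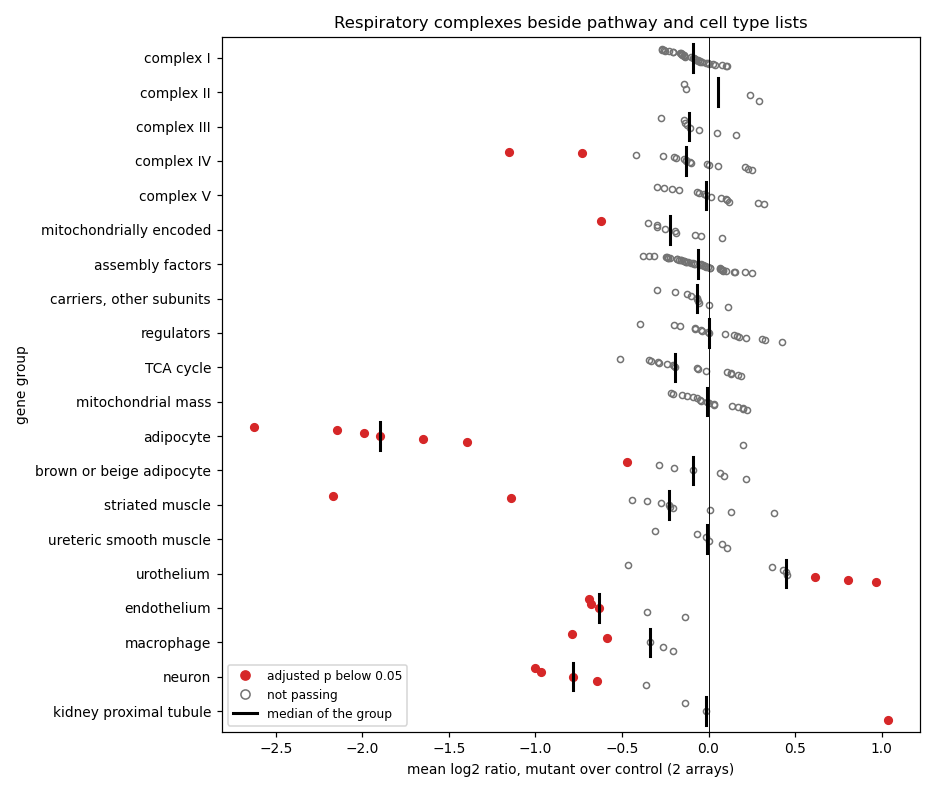
Mean log2 ratio of mutant over control for each tested gene of the 5 complexes, of mitochondrially encoded subunits, of the pathway lists and of the cell type lists, with called genes filled in red and the median of each group as a bar. The complexes have medians between -0.13 and 0.05, while 6 of 7 adipocyte markers fell and 3 of 8 urothelial markers rose.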

How the data were processed

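Cultured ureters gave total RNA, 150 ng per labelling, for 2 two-colour Agilent arrays on a shared slide and scan. Intensity values in the files the authors deposited are the mean of a spot's pixels and the median of its surround. Agilent Feature Extraction 10.7.3.1 is named in the submitters' processing notes. Per the file headers, that software also subtracted background and normalised dyes to give processed intensity values and their log10 ratios, red over green. In the value table the authors deposited, each probe has a score that reads as a signed fold of mutant over control. That direction was found by setting it against the scanner values (r = 0.84 on array 1, and -0.85 on array 2 where dyes were swapped, with red over green). Its median is 1, and its averaging and centring stay unknown.

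Here, limma 3.58.1 in R 4.3.3 applied normexp (offset 50) and then loess within arrays, leaving out control and outlier spots. Values of a probe's 4 spots were averaged, the sign was turned by the labelled dyes, and the brightest probe stood for its gene. A probe entered the test where at least 1 genotype was well above background on both arrays, which 28915 were. The test was lmFit with eBayes, two-sided. An array pairs the mutant and control RNA that share a number in the labels. RefSeq symbols (GRCm38.p6) came by accession for 28322 probes and by symbol for 3648, and 7459 kept the name in the file. Probe coordinates are on mm9 by the headers. No gene spot was saturated. As a check of the dye swap, unturned Cy5 over Cy3 ratios gave 0 calls by limma, with 77 genes at p below 0.05 before adjustment. Turned ratios gave 4938 such genes. The counts would be the same with the dye labels of both arrays reversed. They therefore do not show which channel held the mutant RNA, which was taken from the labels. The median SD was 0.05 log2 between spots and 0.11 between arrays. The fit was tested on simulated data.

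The members and lists were chosen with earlier results of these data known. Named are every called member, the highest and lowest of each complex, the Sdh genes, isoform families, names that encode no subunit and genes with probes of opposite sign. Of pathway lists the called genes or the 3 smallest p are named, and of cell type lists the called and defining genes. A member that counts in the totals is not reported here by name. Ndufs1 and Ndufs8, the head of complex V, Uqcrh, Krt5 and muscle markers that did not pass were named after their values were seen. Alternatives covered the background correction, loess, the deposited table, dim probes, genes with several probes, limma's variance prior, the pairing, outlier spots, the threshold and membership. The list of mitochondrially encoded subunits and the median without Cox8b and Cox7a1 were added after seeing the data.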

Additional observations from a re-analysis of the deposited data

How the results depend on the processing

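Of 13 alternatives for Cox8b and for Cox7a1, 7 change the ratio and 6 leave it as it is by construction. Those 7 include each array taken alone. In all of them both genes lay below 0, with log2 ratios from -1.35 to -0.98 and from -0.92 to -0.63. The values -0.98 and -0.63 are those of array 1 alone. The 2 member calls of limma's test became 0 with the scanner software's processed signals (5 members at an unadjusted p below 0.05), 0 with median centring (24) and 0 with separate channels and no replicate block (3), and 1, Cox8b, with the authors' value table (6). Over all genes tested the 842 calls became 10, 0, 3 and 140 under these settings in that order, with 4609, 5567, 1501 and 4667 genes at an unadjusted p below 0.05. They became 1415 with limma-trend and 1915 at an adjusted p below 0.1, where Cox6a2 joined the member calls. The fit without the replicate block drops the pairing of mutant with control RNA on an array. Median centring also moved the members' median to -0.37 (-0.05 on array 1 and -0.68 on array 2), and the cause was not tested. Of 82 members, 76 had a probe in the brightest 25% of those tested, a fact of spot brightness and not of RNA level. The median without either replicate ran from -0.13 to -0.02, and with 1 array no call can be tested. Under median centring these means turned below 0: Atp5c1 -0.30, Atp5g1 -0.19, Atp5g2 -0.27, Atp5g3 -0.035, Atp5s -0.089, Cox4i1 -0.34, Cox5a -0.077, Cox6a1 -0.14, Cox6b2 -0.13, Ndufa8 -0.13, Ndufb11 -0.29, Sdha -0.034, Uqcrfs1 -0.10, Slc25a3 -0.053 and Tomm20 -0.077. Members near 0 changed sign elsewhere, Atp5c1 to -0.012 with the mean over probes, Cox4i1 to -0.0041 with a normexp offset of 0 and -0.013 with the authors' table, and Cox7a2l to 0.0026 with processed signals and 0.018 with the authors' table.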
